A study of Mus musculus with 10 samples.

Results

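The genes described here are the Hox genes, taken as every gene whose symbol in the array annotation is Hox followed by a cluster letter from a to d and a number. The rule found 37 genes among the 19938 genes measured: 10 of the Hoxa cluster, 9 of Hoxb, 9 of Hoxc and 9 of Hoxd, which lie on chromosomes 6, 11, 15 and 2. Each was read by 1 probe set. Hoxb8 was covered only by a probe set shared with Hoxb7 and is left out of the counts.

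RNA was taken from fast hindlimb muscles of mice labelled as 8 weeks old and of strain C56BL6N, spelled here as in the labels, and hybridised to Affymetrix Mouse Gene ST arrays, which give 1 log2 signal per probe set after RMA, a normalization that combines the probes of a set. In tibialis anterior (TA), 2 control arrays came from muscle electroporated with a control vector and 2 from muscle electroporated with shlincMYH, a short hairpin RNA against linc-MYH, a noncoding RNA of the fast myosin locus. For both groups 10 µg of plasmid was introduced and fibers showing GFP were dissected 2 weeks later. The RNA is thus that of transfected fibers and whatever adhered to them. The methods give 8 weeks as an age at electroporation, so the TA mice may have been older than that when sampled. The methods give the control plasmid as one for shLacZ, placed in the opposite leg of the mouse, so control and shlincMYH muscles may come from the same mice, but the labels tie no array to a mouse and the arrays were fitted unpaired. With the replicate number as a block 0 Hox genes passed in TA (lowest limma adjusted p = 0.365). In gastrocnemius (GAS), 3 arrays came from wild type mice and 3 from cSix1 KO mice, a conditional knockout in which Cre is driven by the human skeletal actin promoter and so acts in muscle fibers and not in the other cells of the muscle. The labels do not say whether the GAS arrays are of separate mice, and the p-values then measure only the spread between these arrays. The target of neither perturbation was analysed here, so neither is checked by its own target.

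Hox genes encode homeodomain transcription factors that give cells their position along the body axis and, in the limb, along the axis from shoulder or hip to digits. Within a cluster the genes lie in the order of their paralog numbers, low numbers being used toward the head and high numbers toward the tail, and members with the same number in different clusters are paralogs. In the hindlimb, paralogs 9 and 10 are known for the thigh region, 11 for the lower leg and 13 for the foot. Adult muscle keeps part of this positional expression in fibers, satellite cells and connective tissue. The proteins bind DNA together with TALE cofactors such as Pbx and Meis, and the silent parts of the clusters are held by Polycomb complexes.

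All 10 myofiber markers, among them Ckm and Acta1, lay at or above the 99.0th percentile in both muscles, so the arrays carry skeletal muscle RNA, which does not tell TA from GAS or one group from another. The median signal over all probe sets was 5.09 to 5.14 on the TA arrays and 6.60 to 6.67 on the GAS arrays. For this reason no level was compared between the muscles, and signals are given as percentiles of the mean control signal among all genes of that muscle. Probe sets differ in their probes, so a percentile says where a signal lies and not how much RNA there is. As a reference for dim probe sets, 1015 olfactory receptor genes, which muscle is not known to use, had a median percentile of 8.71 in TA and 7.94 in GAS, and 95% of them lay below the 39.7th percentile in TA and the 32.8th in GAS.

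Hoxc10, a gene of posterior trunk and hindlimb, gave the highest Hox signal in both muscles, at the 92.2nd percentile in TA and the 89.2nd in GAS. In TA control it read 8.07 and 8.25, and in GAS control 9.69, 9.65 and 9.84. Its percentile moved little between arrays, from 92.0 to 92.4 in TA and from 88.6 to 90.0 in GAS. The next member stood at 75.9 in TA and at 79.8 in GAS.

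In TA the next 4 were Hoxa4 at the 75.9th percentile, Hoxa10 at the 75.4th, Hoxb1 at the 70.8th and Hoxc9 at the 70.3rd. Hoxa4 read 6.58 and 6.58, Hoxa10 6.41 and 6.69, Hoxb1 6.26 and 6.26, and Hoxc9 6.30 and 6.17. The ranges of Hoxa4 and Hoxa10 over the control arrays overlapped, as did those of Hoxb1 and Hoxc9, so the order within each pair is not separated by the spread. Hoxa10 and Hoxc9 are posterior genes of the limb, whereas Hoxb1 is best known from the hindbrain.

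In GAS the next 4 were Hoxd8 at the 79.8th percentile, Hoxa9 at the 76.5th, Hoxd10 at the 68.2nd and Hoxc9 at the 67.8th. Hoxd8 read 8.72, 8.91 and 8.94, and Hoxa9 read 8.53, 8.67 and 8.62. Hoxd10 read 7.96, 8.32 and 7.88, and Hoxc9 8.13, 7.86 and 8.10. The percentiles of Hoxd8 over the control arrays (77.8 to 80.8) just cleared those of Hoxa9 (75.1 to 77.7), while those of Hoxd10 and Hoxc9 overlapped. Hoxc10 and Hoxc9 were among the 5 brightest in both muscles.

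By paralog number the median percentile was highest at paralogs 8, 9 and 10, which rest on 2, 4 and 3 genes. In TA paralogs 9 ran from 33.1 to 70.3 and paralogs 10 from 33.6 to 92.2. Paralogs 5 came next in TA at a median of 57.9, and paralogs 8 lack Hoxb8. The medians were not tested. The median percentile of paralogs 10 was 75.4 in TA and 68.2 in GAS, that of paralogs 9 was 61.8 and 64.9, and that of paralogs 8 was 59.3 and 68.1. Paralogs 12 were at 27.9 and 24.7, paralogs 13 at 26.7 and 25.9, and paralogs 2 at 25.2 and 26.6. Paralogs 1, Hoxb1 and Hoxd1, were at 46.2 and 35.8 and far apart, Hoxd1 standing at 21.6 and 24.4. Paralogs 11 had medians of 40.8 and 40.0, below paralogs 10 in both muscles. Paralogs 11, the genes known for the lower leg, held Hoxd11 at 45.1 and 40.0, Hoxa11 at 40.8 and 25.8, and Hoxc11 at 22.6 and 42.2 in TA and GAS. Hoxc13 was the dimmest member in both, at the 10.6th and 15.8th percentile, and the only paralog 13 above the olfactory bound was Hoxa13 in GAS, at 50.5.

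By cluster, the median percentile was highest for Hoxa, 53.7 in TA and 53.5 in GAS, followed by Hoxc at 47.2 and 50.0. Hoxb had 43.7 and 35.5, and Hoxd 33.6 and 40.0. Over all 37 members the median was 43.7 in TA and 43.4 in GAS, below the 50.0 of all genes. The cluster medians rest on 9 or 10 genes that spread widely, in TA from 10.6 to 92.2 within Hoxc alone, and were not tested.

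**Figure D1:**
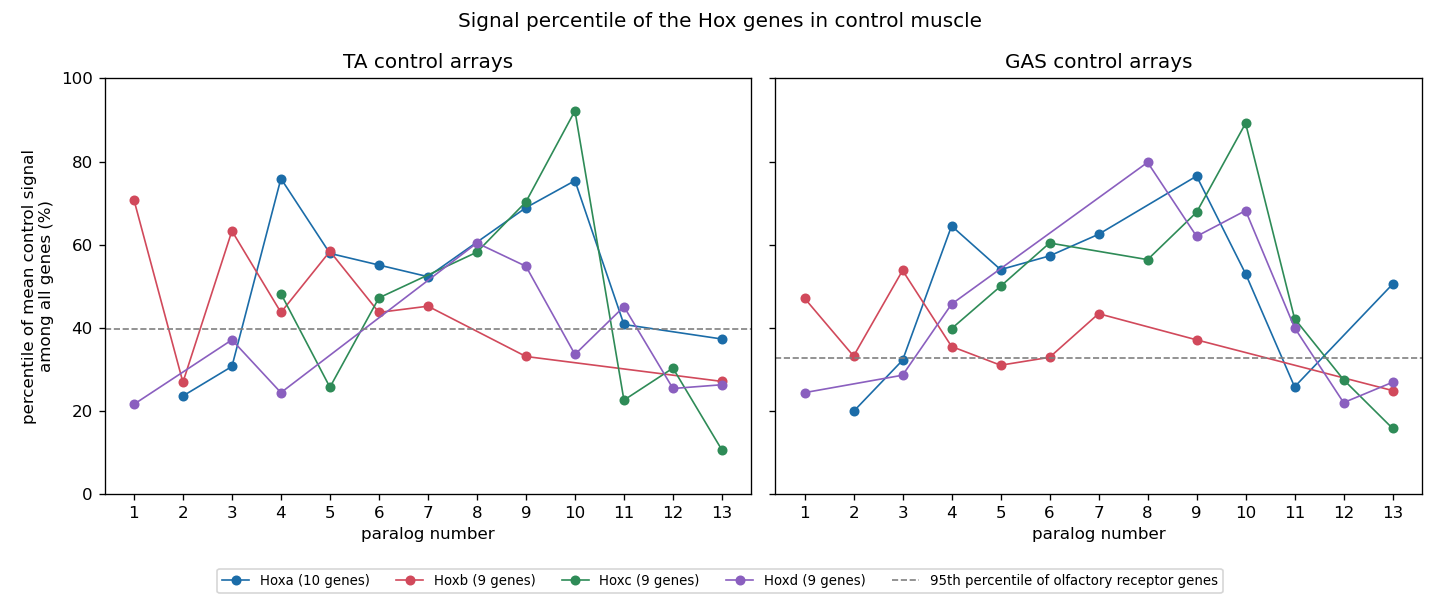
Percentile of the mean control signal among all genes (vertical axis, in percent) against paralog number for the 37 Hox genes, coloured by cluster, in TA (left, 2 arrays) and GAS (right, 3 arrays); the dashed line is the 95th percentile of the olfactory receptor genes. Hoxc10 stands highest in both panels, at 92.2 and 89.2, and paralogs 12 and 2 lie low, at medians of 27.9 and 25.2 in TA.

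Against the olfactory bound, 21 members (56.8%) lay above it in TA and 26 (70.3%) in GAS, shares near the 60.3% and 67.2% of all genes. The 19 above it in both were Hoxa4, Hoxa5, Hoxa6, Hoxa7, Hoxa9 and Hoxa10 in a run, Hoxb1, Hoxb3, Hoxb4, Hoxb6 and Hoxb7, Hoxc4, Hoxc6, Hoxc8, Hoxc9 and Hoxc10, and Hoxd8, Hoxd9 and Hoxd11. The 9 below it in both were Hoxa2, Hoxa3, Hoxb13, Hoxc12, Hoxc13, Hoxd1, Hoxd3, Hoxd12 and Hoxd13, which lie toward the ends of their clusters. Not every end gene did so, as Hoxb1 and Hoxc4, the lowest numbers measured in their clusters, were above it in both. Hoxa11 and Hoxb5 were above it in TA alone, and Hoxa13, Hoxb2, Hoxb9, Hoxc5, Hoxc11, Hoxd4 and Hoxd10 in GAS alone. A signal below the bound does not show that a gene is silent.

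The percentiles of the 37 genes in the muscles correlated with a Pearson r of 0.75 and a Spearman rho of 0.72 across genes, where all genes gave a rho of 0.92. The points share the probes of each gene, and genes are not independent replicates. The members farthest apart were Hoxd10, at 33.6 in TA and 68.2 in GAS, Hoxb5, at 58.4 and 31.0, and Hoxc5, at 25.7 and 50.0. Hoxb1 stood at 70.8 and 47.1, Hoxa10 at 75.4 and 53.0, Hoxd4 at 24.4 and 45.7, and Hoxc11 at 22.6 and 42.2. All 4 TA arrays carried Y-linked signal, whereas 2 of the 3 GAS control arrays carried Xist signal. Muscle, sex, array set, dissection of GFP fibers, electroporation and possibly age differ together between TA and GAS and cannot be told apart.

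**Figure D2:**
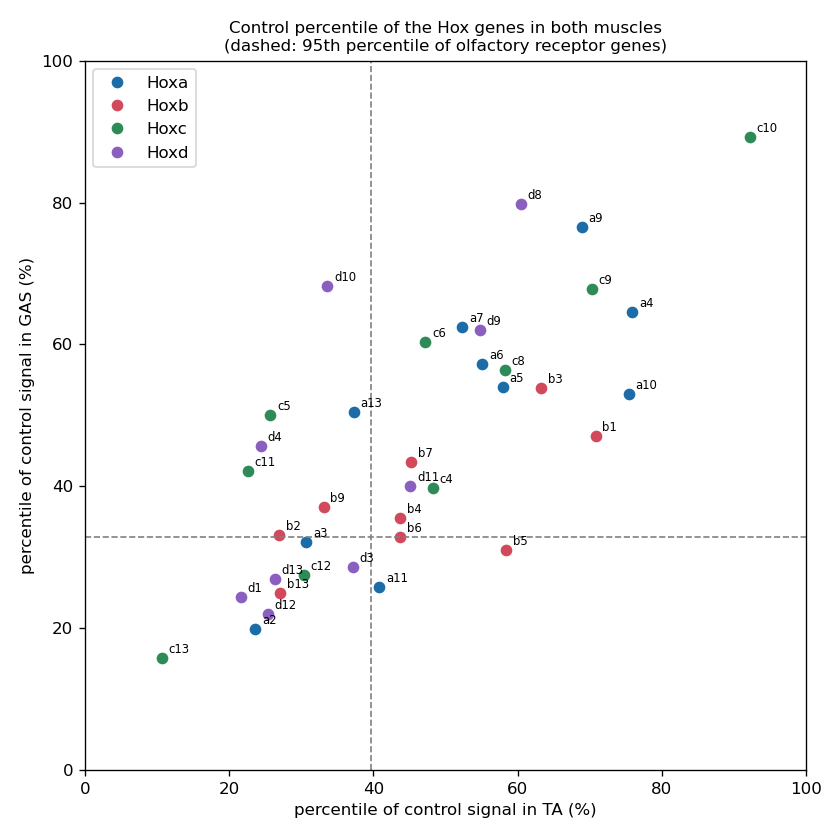
Control percentile of each Hox gene in TA (horizontal axis, percent) against GAS (vertical axis, percent), coloured by cluster and labelled by cluster letter and number, with dashed lines at the 95th percentile of olfactory receptor genes. Hoxc10 lies at the top right of both scales, and Hoxd10 and Hoxb5 lie far from the diagonal on opposite sides.

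The first comparison asked whether knockdown of linc-MYH changed Hox signals in TA fibers. None of the 37 members passed limma at an adjusted p of 0.05, where 0.0150% of all genes did. The lowest adjusted p was 0.431, for Hoxb6. At an unadjusted p of 0.05 there were 2 members, 1 higher and 1 lower, against 8.65% of all genes, 4.27% higher and 4.37% lower, and the methods' t-test gave 3.

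Hoxb6, a gene of the trunk and lateral plate mesoderm, had the lowest value. It read 5.17 and 4.91 in control and 4.42 and 4.46 after shlincMYH. Both shlincMYH arrays lay below both control arrays, with a log2 fold change of -0.60 ± 0.14 (SE, n = 2 per group; limma unadjusted p = 0.00391, adjusted p = 0.431). Its neighbour Hoxb5 read 5.70 and 5.60 against 5.01 and 5.51, a log2 fold change of -0.40 ± 0.18 (limma adjusted p = 0.619) that ran from -0.65 to -0.14 when 1 array was left out. Hoxb1 read 6.26 and 6.26 against 5.93 and 6.05 (-0.27 ± 0.12, limma adjusted p = 0.593), and Hoxb7 5.17 and 5.05 against 4.88 and 4.94 (-0.20 ± 0.12, limma adjusted p = 0.693). In Hoxd, Hoxd11 read 5.20 and 5.01 against 4.93 and 4.81 (-0.23 ± 0.13, limma adjusted p = 0.674). In each of these 5 genes the shlincMYH arrays lay below the control arrays, and none passed the adjusted threshold in the fit of the TA arrays. With all 10 arrays in 1 fit Hoxb6 passed (limma adjusted p = 0.0384), as did 131 genes in place of 3.

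The highest value was that of Hoxc6, a trunk gene of the Hoxc cluster, which read 4.94 and 5.43 in control and 5.72 and 5.66 after shlincMYH. The log2 fold change was 0.51 ± 0.18 (limma unadjusted p = 0.0276, adjusted p = 0.525) and ran from 0.26 to 0.75 when 1 array was left out, and the control arrays differed by nearly as much as the groups did. Hoxb9 was the other member with both shlincMYH arrays above both controls, at 4.59 and 4.62 against 4.63 and 4.71, a log2 fold change of 0.07 ± 0.12. Hoxc10, the brightest member, read 8.02 and 8.10 after shlincMYH, overlapping its control arrays (-0.10 ± 0.13).

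**Figure D3:**
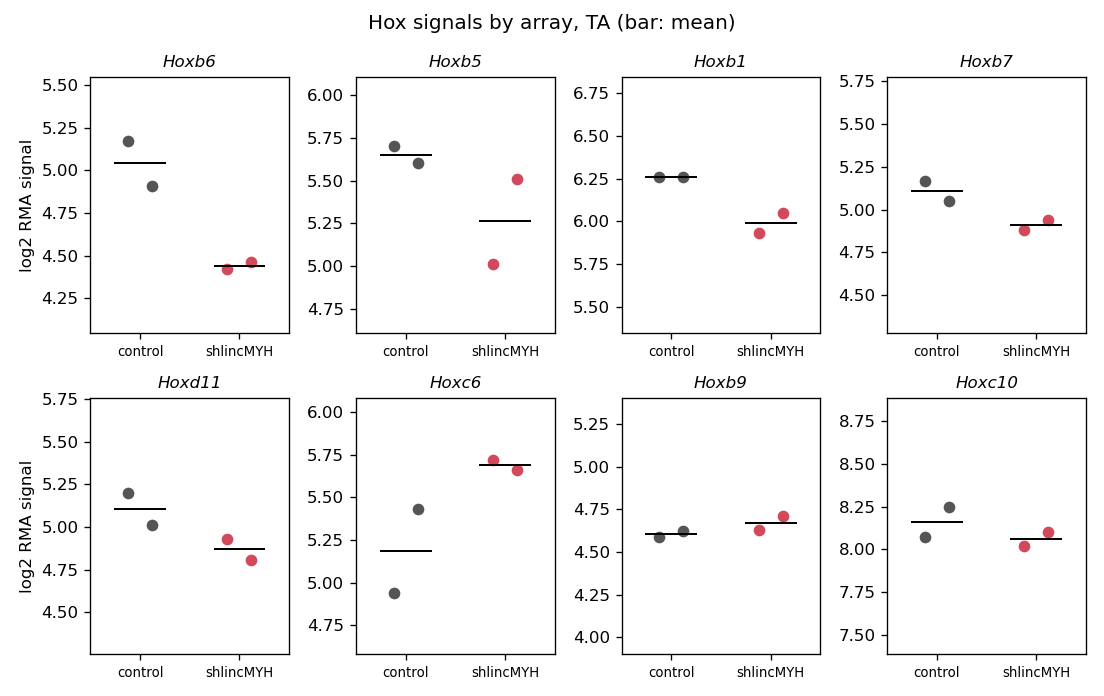
Log2 RMA signal (vertical axis, the same span of 1.5 in each panel) of 8 Hox genes on each TA array, control in grey and shlincMYH in red, with the mean as a bar. Hoxb6 and Hoxb5 lie lower and Hoxc6 higher on the shlincMYH arrays, and the groups overlap for Hoxc10.

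Values below 0 were more frequent than above: 30 members were below 0 and 7 above, where 56.2% and 43.7% of all genes were. The median log2 fold change was -0.08, beside -0.03 for all genes. The count turned on the scaling, being 25 below 0 and 12 above with each array centred on its own median, where 48.3% of all genes were below 0. In 13 members both shlincMYH arrays lay below both control arrays, as they did in 23.0% of all genes, and in 2 members above, as in 16.3% of all genes. Of the 13, 6 were Hoxb genes, namely Hoxb1, Hoxb4, Hoxb5, Hoxb6, Hoxb7 and Hoxb13. By cluster 7 of 10 Hoxa genes were below 0, 8 of 9 Hoxb, 7 of 9 Hoxc and 8 of 9 Hoxd.

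The second comparison asked whether Hox signals in GAS differed between cSix1 KO and control. Here too none of the 37 members passed limma at an adjusted p of 0.05, against 1.74% of all genes. The lowest adjusted p was 0.116, for Hoxd8. At an unadjusted p of 0.05 there were 4 members, 1 higher and 3 lower, where 14.9% of all genes passed, 8.44% higher and 6.50% lower, and the methods' t-test gave 2 members. The 3 lower ones were Hoxd8, Hoxd9 and Hoxd10, and their share of the members, 8.11%, is near that of all genes.

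Hoxd8 read 8.72, 8.91 and 8.94 in control and 8.42, 8.65 and 8.45 in cSix1 KO. All cSix1 KO arrays lay below all control arrays, with a log2 fold change of -0.35 ± 0.09 (SE, n = 3 per group; limma unadjusted p = 0.00509, adjusted p = 0.116). Hoxd9 read 7.63, 7.69 and 7.78 against 7.38, 7.60 and 7.56, a log2 fold change of -0.19 ± 0.08 (limma unadjusted p = 0.0468, adjusted p = 0.325), again with no overlap. Hoxd10, a gene of the hindlimb and of lumbar motor neurons, read 7.96, 8.32 and 7.88 against 7.52, 7.90 and 7.40, and 1 cSix1 KO array lay within the control range. Its log2 fold change was -0.45 ± 0.15 (limma unadjusted p = 0.0199, adjusted p = 0.223). The next gene of the cluster, Hoxd11, read 6.47, 6.46 and 6.35 against 6.33, 6.33 and 6.45, with overlapping groups (-0.06 ± 0.07).

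Outside Hoxd, Hoxa5 was the member with the highest value. It read 7.21, 7.19 and 7.28 in control and 7.63, 7.41 and 7.32 in cSix1 KO, with no overlap (0.23 ± 0.09, limma unadjusted p = 0.0334, adjusted p = 0.278, and 0.14 to 0.29 when 1 array was left out). Hoxa7 read 7.73, 7.77 and 7.68 against 7.64, 7.62 and 7.61, a small difference with no overlap (-0.10 ± 0.06, limma adjusted p = 0.529). Hoxa9, the brightest Hoxa gene in GAS, read 8.53, 8.67 and 8.62 against 8.65, 8.50 and 8.49, which overlapped (-0.06 ± 0.08). Hoxc10 read 9.68, 9.76 and 9.73 in cSix1 KO, inside its control range, with a 95% interval of -0.17 to 0.17 on the log2 scale.

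**Figure D4:**
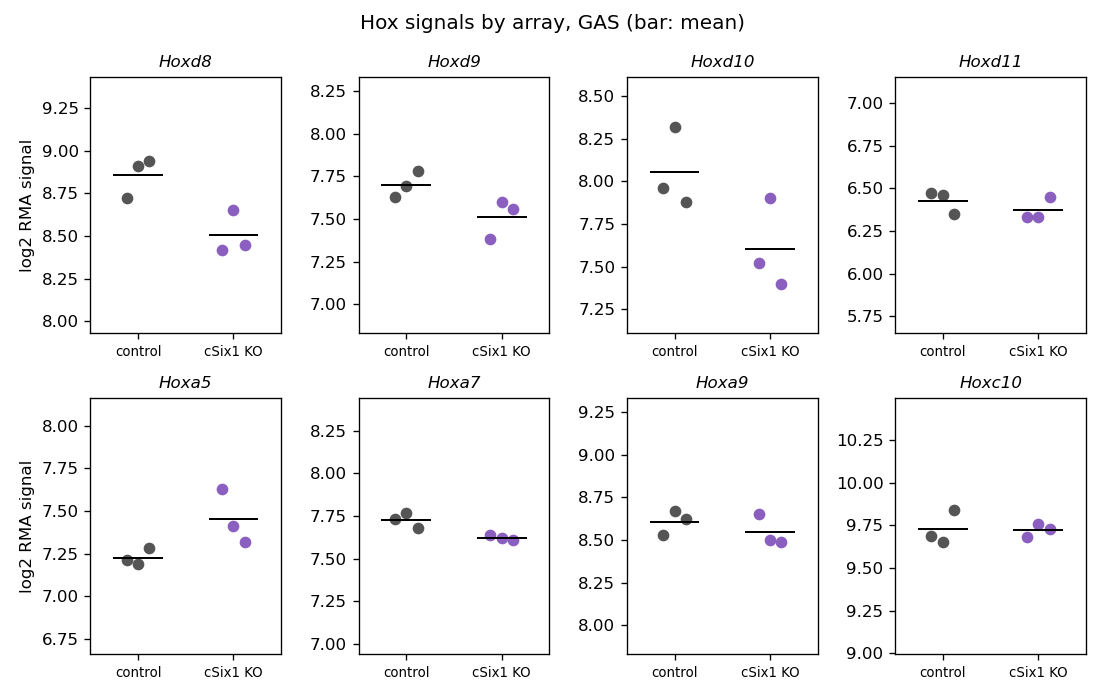
Log2 RMA signal (vertical axis, the same span of 1.5 in each panel) of 8 Hox genes on each GAS array, control in grey and cSix1 KO in purple, with the mean as a bar. Hoxd8 and Hoxd9 do not overlap between groups, Hoxd10 overlaps by 1 array, and Hoxd11 and Hoxc10 lie in the same range in both groups.

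Over all members 22 were below 0 and 15 above, where 47.2% and 52.8% of all genes were, and the median was -0.03 beside 0.01. Centring each array on its median gave 27 below 0 and 10 above, with 63.3% of all genes below 0. Groups did not overlap in 1 member that was higher and 3 that were lower, against 11.0% and 9.85% of all genes. In Hoxd 7 of 9 members were below 0, in Hoxc 7 of 9, in Hoxa 5 of 10 and in Hoxb 3 of 9.

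The intervals bound the change in signal, and not in RNA, that these arrays could have missed. A dim probe set may not follow its RNA, and 21 members in TA and 26 in GAS lay above the olfactory bound. In GAS all 37 members had a 95% interval inside a 2-fold change in either direction, as had 98.2% of all genes, and the widest bound was -0.81, for Hoxd10. In TA 36 of 37 had, as had 96.9% of all genes, the exception being Hoxc8, whose interval reached -1.05. Hoxc8 read 5.93 and 5.36 in control and 5.70 and 4.92 after shlincMYH, so its arrays were spread within both groups.

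**Figure D5:**
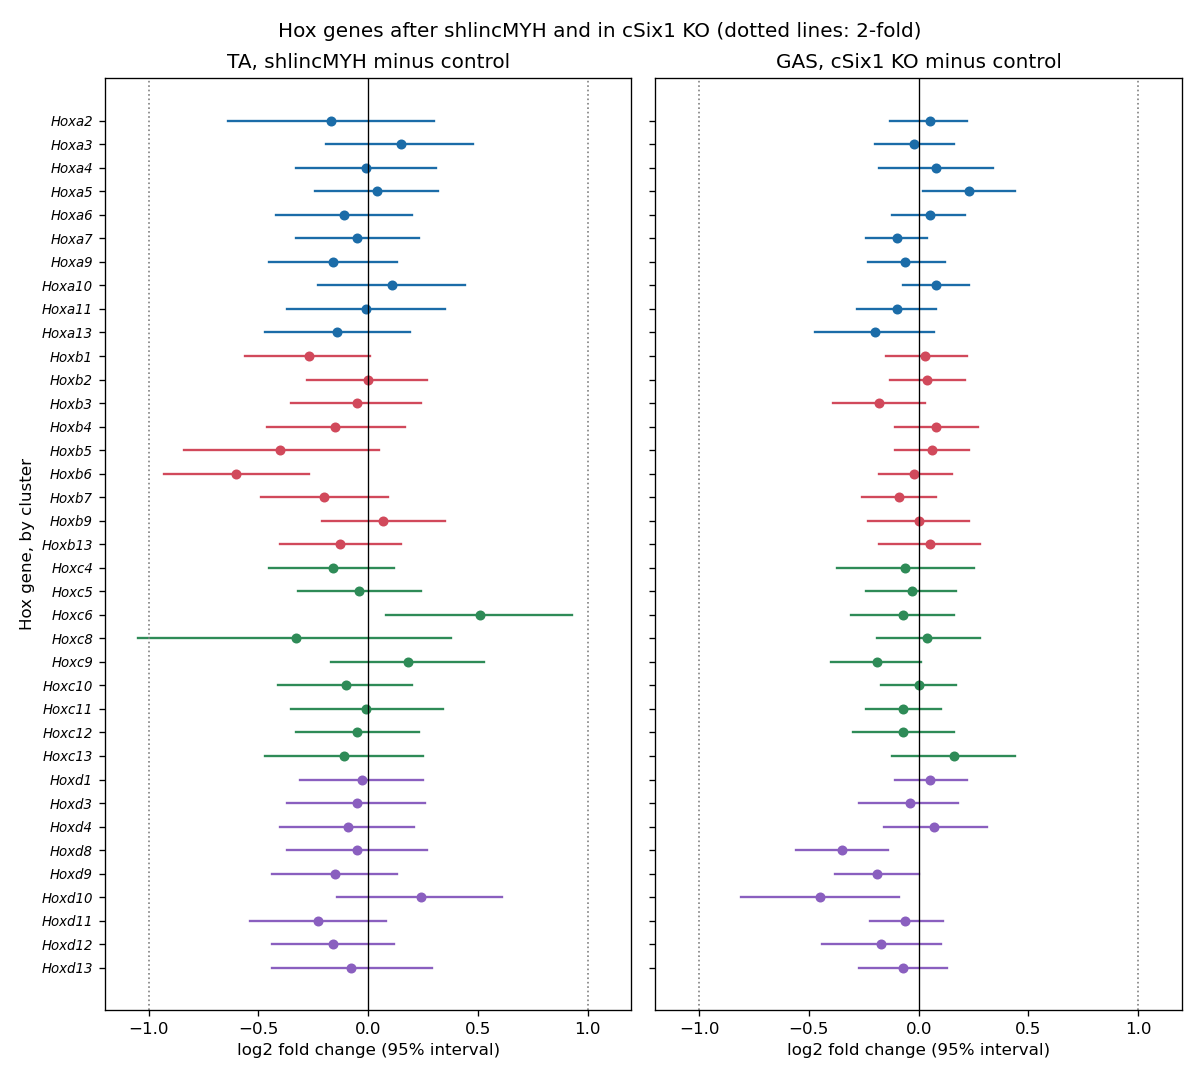
Log2 fold change (horizontal axis) with its 95% interval for the 37 Hox genes, coloured by cluster, after shlincMYH in TA (left, 2 against 2 arrays) and in cSix1 KO in GAS (right, 3 against 3 arrays); dotted lines mark a 2-fold change. Intervals are wider in TA, and Hoxd8 and Hoxd10 in GAS and Hoxb6 and Hoxc6 in TA lie farthest from 0 with intervals that leave it out.

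The comparisons share no array, and their difference was tested in a single limma fit over the 4 groups. That fit takes 1 spread per gene for both muscles. Where the TA arrays spread more than the GAS arrays, the interval of the difference may be too narrow. For Hoxb6 the SE of the difference was 0.14, no larger than that of TA alone. No member passed an adjusted p of 0.05, against 0.145% of all genes, the lowest being 0.157 for Hoxb6. At an unadjusted p of 0.05 there were 6 members, Hoxb1, Hoxb5, Hoxb6, Hoxc6, Hoxc9 and Hoxd10, where 12.3% of all genes passed. For Hoxd10 the values were 0.24 ± 0.16 in TA and -0.45 ± 0.15 in GAS, differing by 0.69 with a 95% interval of 0.15 to 1.22 (limma adjusted p = 0.303). For Hoxb6 they were -0.60 ± 0.14 and -0.02 ± 0.07. In TA Hoxd10 lay below the olfactory bound, at the 33.6th percentile against 39.7. In GAS Hoxb5 lay below it, at 31.0 against 32.8, and Hoxb6 barely above it, at 32.9.

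Promoter windows of 300 bases, from 250 before to 50 after the start, were at hand for 21 of the 37 members in RefSeq on GRCm38.p6, in 23 windows. They are described because cluster promoters are known for CpG islands. The observed over expected count of CG dinucleotides had a median of 0.60 over the Hox windows and 0.38 over all 32851 windows, and the Hox windows ran from 0.26 to 1.02. GC content was 58.0% against 52.7% in the median. The 250 bases before the start of Hoxd8, Hoxd9 and Hoxd10, the members described most fully for GAS, are shown as examples with each CG in capitals, on the plus strand of chromosome 2, at chr2:74704365-74704614 for Hoxd8, chr2:74697513-74697762 for Hoxd9 and chr2:74691641-74691890 for Hoxd10.
Hoxd8: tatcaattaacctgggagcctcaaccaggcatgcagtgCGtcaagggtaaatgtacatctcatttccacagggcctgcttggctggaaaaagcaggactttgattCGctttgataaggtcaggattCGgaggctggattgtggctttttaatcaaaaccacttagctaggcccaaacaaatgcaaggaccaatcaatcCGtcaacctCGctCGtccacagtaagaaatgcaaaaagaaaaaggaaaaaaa
Hoxd9: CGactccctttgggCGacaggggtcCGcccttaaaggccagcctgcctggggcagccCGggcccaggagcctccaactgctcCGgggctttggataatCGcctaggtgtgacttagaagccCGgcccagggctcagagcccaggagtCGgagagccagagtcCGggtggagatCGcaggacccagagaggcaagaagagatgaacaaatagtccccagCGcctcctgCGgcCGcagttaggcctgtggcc
Hoxd10: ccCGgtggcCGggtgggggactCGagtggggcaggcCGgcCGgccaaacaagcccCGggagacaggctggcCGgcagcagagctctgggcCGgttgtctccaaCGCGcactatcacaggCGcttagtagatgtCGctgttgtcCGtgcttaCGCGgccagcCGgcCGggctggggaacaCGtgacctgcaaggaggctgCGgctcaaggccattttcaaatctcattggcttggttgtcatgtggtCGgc
They hold 6, 13 and 20 CG dinucleotides, and the whole windows had ratios of 0.37, 0.57 and 0.75. The Hox-Pbx motif TGATTNAT, a letter sequence that Hox proteins bind together with Pbx, was searched on both strands and was in 1 window of Hoxa2 and 1 of Hoxd11, where 3.22% of all windows held it. A missing match says only that these letters are not in the window.

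The clusters also hold microRNAs, which pair through their seed with targets that include Hox transcripts. The mature sequences of miR-10 and miR-196 are shown with the seed, bases 2 to 8, in capitals, because they fall into a pair of seed families that cross clusters. Coordinates are of GRCm38.p6, on the plus strand except for miR-196b, and the sequences are those of RefSeq.
mmu-miR-10a-5p, Hoxb cluster, chr11:96317186-96317208: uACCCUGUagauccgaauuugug
mmu-miR-10b-5p, Hoxd cluster, chr2:74726074-74726096: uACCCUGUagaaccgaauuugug
mmu-miR-196a-5p, Hoxb cluster, chr11:96265187-96265208, and Hoxc cluster, chr15:102973365-102973386: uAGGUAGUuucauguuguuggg
mmu-miR-196b-5p, Hoxa cluster, chr6:52230129-52230150: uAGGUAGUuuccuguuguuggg
The array reads their genes through probe sets that see mostly longer RNA, and the signals were dim: Mir10a lay at percentile 0.527 in TA and 1.60 in GAS, and Mir10b at 1.72 and 2.15. Mir196a-2, in Hoxc, read 4.78, 4.86 and 4.90 in GAS control and 4.59, 4.68 and 4.65 in cSix1 KO (-0.21 ± 0.07, limma adjusted p = 0.196), at percentile 14.1. None of the 17 measured microRNAs, noncoding RNAs and bordering genes of the clusters passed the adjusted threshold in limma in either muscle. In TA 1 and in GAS 3 had a limma unadjusted p under 0.05, as had 8.65% and 14.9% of all genes. Of the genes that flank the clusters, Lnpk beside Hoxd read 9.66, 9.75 and 9.73 against 10.26, 10.35 and 9.94 in GAS (0.47 ± 0.11, limma adjusted p = 0.0845), and Skap2 beside Hoxa 7.10, 7.23 and 7.33 against 7.88, 7.68 and 7.50 (0.47 ± 0.11, limma adjusted p = 0.0874). Both were higher on every cSix1 KO array. For Lnpk this was the direction opposite to Hoxd8 and Hoxd9. Mtx2, which also flanks Hoxd, had a value below 0 as they did. It read 10.76, 10.42 and 10.55 against 10.34, 9.91 and 10.58, with overlapping groups (-0.31 ± 0.17, limma adjusted p = 0.464). In Hoxa, beside Skap2, 5 genes were above 0 and 5 below.

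Of the TALE cofactors, 8 of 9 were measured and none passed limma in either comparison. At a limma unadjusted p under 0.05 there were 0 in TA and 1 in GAS, against 8.65% and 14.9% of all genes. Pknox2, at the 89.9th percentile in GAS, read 9.84, 9.98 and 9.67 in control and 9.45, 9.54 and 9.53 in cSix1 KO (-0.32 ± 0.09, limma adjusted p = 0.139). Meis1, a main partner of Hox proteins, read 7.15, 7.12 and 7.14 against 7.22, 7.18 and 7.02. All 12 limb identity and limb field genes were measured and none passed limma. In TA 0 and in GAS 2 had a limma unadjusted p under 0.05, against 8.65% and 14.9% of all genes. Tbx4, a hindlimb gene, lay at the 50.2nd percentile in TA and the 67.9th in GAS, and Pitx1, its hindlimb partner, at 33.4 and 45.2, while Tbx5, the forelimb gene, lay at 18.7 and 22.7. Prrx1, a gene of limb mesenchyme, lay at 91.2 and 94.4 and read 10.53, 10.47 and 10.47 in GAS control and 10.91, 10.87 and 10.57 in cSix1 KO (0.29 ± 0.10, limma adjusted p = 0.204). Of 28 Polycomb and trithorax genes 26 were measured and none passed limma. In TA 2 and in GAS 3 had a limma unadjusted p under 0.05, against 8.65% and 14.9% of all genes. The median log2 fold changes of the 26 genes were 0.04 in TA and 0.01 in GAS.

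A list of 11 genes that set Hox expression in the embryo held Cdx and retinoic acid genes, with Gdf11 and Gmnn. Of these, 1 passed limma in GAS and none in TA. The one that passed was Gdf11, which is neither a Cdx nor a retinoic acid gene. The shares of all genes were 1.74% and 0.0150%. At a limma unadjusted p under 0.05 there were 1 in GAS and 0 in TA, against 14.9% and 8.65% of all genes. Gdf11, a ligand of the TGF-beta family known for its part in setting posterior Hox boundaries, read 7.91, 8.26 and 8.18 in control and 7.21, 7.07 and 7.37 in cSix1 KO. It fell in cSix1 KO by 0.90 on the log2 scale (SE 0.11, limma adjusted p = 0.0122). The adjusted p was 0.0529 without cSix1 KO replicate 1 and 0.0556 without cSix1 KO replicate 2, and 0.171 by the methods' t-test, the alternatives running from 0.00554 to 0.171. In TA it read 4.98 and 5.30 against 4.72 and 5.37 (-0.10 ± 0.23), and the difference between the comparisons had a limma adjusted p of 0.273.

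Hox genes are used by fibers and by other cells of muscle, and in whole tissue fewer cells of a type and less RNA per cell cannot be told apart. In GAS all 9 fibroblast markers were above 0 with a median of 0.33, their summed signal on the log2 scale being 14.03 to 14.26 in control and 14.28 to 14.44 in cSix1 KO, and Mfap5 rose by 0.52 (limma adjusted p = 0.0358, between 0.0484 and 0.152 without 1 array, 0.0774 with the replicate block, 0.0863 on the Xist arrays, 0.160 with all 10 arrays in 1 fit and 0.194 by the methods' t-test). All 8 macrophage markers were above 0 with a median of 0.61, summed 11.64 to 11.91 against 12.24 to 12.87. Mrc1 rose by 0.77 (limma adjusted p = 0.0139, 0.0678 without control replicate 2 and 0.166 by the methods' t-test). Cd68 read 9.74, 8.42 and 8.19 in cSix1 KO, so its rise was uneven between arrays. Of all genes 52.8% were above 0 in GAS. At a limma unadjusted p under 0.05, 7 fibroblast and 7 macrophage markers were higher, against 8.44% of all genes. In TA all 10 endothelial markers were below 0 with a median of -0.59, summed 10.53 to 10.54 against 9.55 to 10.21. All 8 smooth muscle and mural markers were below 0 in TA with a median of -0.41, summed 10.65 to 10.89 against 9.93 to 10.37. Of all genes 56.2% were below 0 in TA. At a limma unadjusted p under 0.05, 6 endothelial and 2 smooth muscle and mural markers were lower, against 4.37% of all genes. The myofiber markers were below 0 in 10 of 10 genes in GAS with a median of -0.12, where 47.2% of all genes were below 0. Their summed signal was 16.99 to 17.02 in control against 16.85 to 16.91 in cSix1 KO. At a limma unadjusted p under 0.05, 3 were lower, Actn3, Mylpf and Tnnc2, against 6.50% of all genes. Acta1 stood at -0.01. The list holds Myh4, Tnnt3, Tnnc2 and Atp2a1, which the paper counts among the fast-type genes. For TA of cSix1 KO mice the paper reports lower Myh4, Tnnt3 and Tnnc2. The part of fiber type in the values of these markers was not tested. In TA 9 of 10 myofiber markers were below 0 with a median of -0.13. The medians of the other lists in TA and GAS were 0.03 and 0.24 for satellite cell markers, -0.02 and 0.18 for tenocyte, -0.16 and 0.30 for adipocyte and -0.24 and 0.05 for Schwann and nerve markers. Of the 7 satellite cell markers 4 were higher in GAS at a limma unadjusted p under 0.05, against 8.44% of all genes. The tenocyte marker Scx read 5.90 and 5.82 in TA control and 7.25 and 7.11 after shlincMYH (1.32 ± 0.12, limma adjusted p = 0.0579). In TA 3 tenocyte markers were above 0 and 4 below. The part of these cells in the Hox values was not tested. Replicate 3 of each GAS group carried Y-linked signal and the other GAS arrays Xist signal, so the groups are balanced for it, and on the arrays with Xist signal the Hoxd8 value was -0.28 (limma adjusted p = 0.209).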

How the data were processed

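RNA of 10 samples, TA control (2), TA shlincMYH (2), GAS control (3) and GAS cSix1 KO (3), was hybridised to Affymetrix Mouse Gene ST arrays. The deposited values are log2 RMA signals that the authors computed (R in the methods, Partek in the labels, with no versions stated). The labels and the methods also differ in the labelling kit and RNA amount. Of 35556 probe sets, 21789 had 1 gene symbol, 1621 several and 12146 none, and each of 19938 genes was read from its brightest probe set on average. Each muscle was fitted alone with limma 3.58.1 (lmFit and eBayes) in R 4.3.3, with Benjamini-Hochberg adjustment over all genes and a threshold of 0.05, and the difference between comparisons in a fit of the 4 groups. The number of arrays limits the precision. The script was tested on simulated data. Hox members were all described, and named with values were the 5 brightest per muscle and the 5 largest differences in each direction among members whose groups did not overlap, with Hoxd10, Hoxd11, Hoxc8 and Hoxa9 added after their values were seen. From other lists, members called were named, with only some of those with the largest statistics and some known for their role. Members and lists were chosen with earlier results of these data known. Sequences are from RefSeq. Some items are not reported here.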

Additional observations from a re-analysis of the deposited data

How the results depend on the processing

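No Hox gene passed under any alternative in GAS or for the difference between comparisons. In TA 1 did with all 10 arrays in 1 fit, Hoxb6, at a limma adjusted p of 0.0384, where 131 genes passed in place of 3. The median log2 fold change in TA was -0.06 after quantile normalization, -0.04 with arrays centred, -0.05 with genes dimmer than the median left out, and -0.10 to -0.05 without 1 array. In GAS it was -0.08 with arrays centred and -0.04 to -0.01 without 1 array. With dim genes left out, 15 members in TA and 14 in GAS remained, with median percentiles of 20.8 and 24.5 among the genes kept, against 42.2 to 46.0 and 42.8 to 44.2 without 1 control array. The labels do not say that TA replicate numbers mark the mouse whose legs held both plasmids, so replicate numbers did not qualify as pairs: deviations of same-numbered arrays correlated at 0.185 in TA, with only 2 pairs, and at 0.216, -0.137 and 0.0840 in GAS. With the replicate block 0 Hox genes passed, the lowest adjusted p being 0.365 in TA and 0.0642 in GAS, and 5 and 186 genes passed in all, against 3 and 347. At an unadjusted p of 0.05, Hox genes numbered 1 to 2 in TA and 2 to 5 in GAS without 1 array. The alternatives with Y-linked signal as a block and with Xist arrays alone were chosen after seeing the data. No result reversed, and the causes were not tested.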
